A study of Mus musculus with 10 samples.

Results

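The Rab, Arf and Arl genes encode small GTPases of membrane traffic, and 110 of the 21774 protein-coding genes of the mouse annotation were taken here by symbol. A gene was a member when its symbol began with Rab, Arf or Arl and a digit, with Arfg, or with Sar1. The pattern gave 87 GTPases and 23 genes for partners and regulators such as the Rab11 family interacting proteins, the Rab3 GTPase-activating complex and the Arf exchange factors. Each member was looked up by name in 2 lists of transcription start sites (TSSs) at which ARID2 was enriched, one for postnatal day 28 (P28) and one for P28.5. ARID2 is a subunit of PBAF, a SWI/SNF complex that remodels nucleosomes, and CUT&RUN maps a chromatin protein by cutting the DNA around the antibody bound to it. The lists hold what the study called cluster-1 (Cl-1), the group of TSSs with ARID2 signal in a k-means clustering into 2 clusters.

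The cells came from testes of wild-type CD1 mice whose spermatogenesis had been synchronized. WIN 18,446, a blocker of retinoic acid synthesis, was given from P1 to P10, and 1 dose of retinoic acid at P11 restarted development. Spermatogenic cells were collected at P28 or at P28.5 as preparations rich in prophase-I and metaphase-I spermatocytes. At each age there were 2 ARID2 libraries, 2 BRG1 libraries made with different antibodies, and 1 library without primary antibody that served as the control for enrichment. Every group had both treatments and differed by age or antibody, and the BRG1 libraries were not analysed here. Only the 2 lists were used here. They rest on averaged replicates and give a position and a gene name with no signal, so no replicate spread, depth or fold enrichment could be computed from them, and no difference was tested. The lists hold promoters and no expression values, so the cell type could not be checked against marker genes. Shares are given with 95% Wilson intervals, which cover counting error over genes and no biological error, beside the share of all protein-coding genes.

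A small GTPase of this group works as a switch. In its GTP form it sits on a membrane and gathers effectors such as tethers, motor adaptors and coat proteins. Exchange factors load GTP, GTPase-activating proteins (GAPs) end the active state, and for Rabs an escort and recycling system attaches lipid anchors and returns the protein from the membrane. Different members mark different compartments, from the endoplasmic reticulum (ER) and Golgi to endosomes, lysosomes, secretory vesicles and the cilium. In male germ cells membrane traffic serves spermatocyte cytokinesis and, later, the building of the acrosome from Golgi vesicles.

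The promoters shown here were those of 5 of the 6 members listed at P28.5 alone, which mark what the later list adds, and of a paralogue pair, Arf4 and Arf5, that lie on the same strand and differ in listing. They run from 250 bases before to 50 bases after an annotated start, 5′ to 3′, and come from the RefSeq table for GRCm38.p6, where Rab30, also listed at P28.5 alone, was not matched. Capitals mark every match, on either strand, to a set of short motifs named after the sequences. The windows are chr8:94666841-94667140 (plus strand) for Arl2bp, chr12:40037938-40038237 (minus) for Arl4a, chr11:101665291-101665590 (plus) for Arl4d, chr2:15055070-15055369 (plus) for Arl5b, chr2:156862872-156863171 (plus) for Rab5if, chr14:26637884-26638183 (plus) for Arf4 and chr6:28423354-28423653 (plus) for Arf5.
Arl2bp: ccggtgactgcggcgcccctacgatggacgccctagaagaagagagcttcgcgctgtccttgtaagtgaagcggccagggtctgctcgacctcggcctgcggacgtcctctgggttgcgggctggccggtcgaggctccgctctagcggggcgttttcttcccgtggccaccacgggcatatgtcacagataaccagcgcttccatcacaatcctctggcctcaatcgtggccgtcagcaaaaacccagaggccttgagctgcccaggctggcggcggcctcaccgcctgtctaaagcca
Arl4a: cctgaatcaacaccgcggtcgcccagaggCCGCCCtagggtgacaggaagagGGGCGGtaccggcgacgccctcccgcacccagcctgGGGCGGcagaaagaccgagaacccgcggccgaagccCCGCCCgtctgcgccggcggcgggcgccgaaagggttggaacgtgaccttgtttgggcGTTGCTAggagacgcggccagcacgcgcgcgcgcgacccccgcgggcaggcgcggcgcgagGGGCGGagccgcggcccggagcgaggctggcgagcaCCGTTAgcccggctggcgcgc
Arl4d: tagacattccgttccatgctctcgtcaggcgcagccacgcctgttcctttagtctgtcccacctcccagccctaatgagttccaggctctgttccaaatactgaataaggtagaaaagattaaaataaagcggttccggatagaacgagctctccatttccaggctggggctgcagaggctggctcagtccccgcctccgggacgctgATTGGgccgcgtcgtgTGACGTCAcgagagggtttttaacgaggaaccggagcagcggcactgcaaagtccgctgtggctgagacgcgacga
Arl5b: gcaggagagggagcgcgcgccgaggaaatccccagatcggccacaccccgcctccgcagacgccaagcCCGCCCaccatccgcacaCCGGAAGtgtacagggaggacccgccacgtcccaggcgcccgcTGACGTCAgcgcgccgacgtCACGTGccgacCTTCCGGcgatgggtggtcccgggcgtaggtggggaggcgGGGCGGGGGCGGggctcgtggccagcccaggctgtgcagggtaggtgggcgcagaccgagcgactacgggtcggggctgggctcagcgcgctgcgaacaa
Rab5if: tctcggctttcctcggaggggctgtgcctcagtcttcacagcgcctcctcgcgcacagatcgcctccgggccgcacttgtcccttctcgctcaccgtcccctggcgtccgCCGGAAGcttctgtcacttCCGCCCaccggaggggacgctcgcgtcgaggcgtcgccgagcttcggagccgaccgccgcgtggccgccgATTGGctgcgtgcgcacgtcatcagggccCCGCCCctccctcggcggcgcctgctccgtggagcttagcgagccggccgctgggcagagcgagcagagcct
Arf4: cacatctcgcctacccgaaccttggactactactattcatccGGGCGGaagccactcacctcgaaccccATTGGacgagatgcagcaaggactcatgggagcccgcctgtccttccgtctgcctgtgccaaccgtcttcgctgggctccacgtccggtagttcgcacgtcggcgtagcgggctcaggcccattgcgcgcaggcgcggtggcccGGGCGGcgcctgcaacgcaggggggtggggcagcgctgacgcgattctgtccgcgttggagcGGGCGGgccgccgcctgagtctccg
Arf5: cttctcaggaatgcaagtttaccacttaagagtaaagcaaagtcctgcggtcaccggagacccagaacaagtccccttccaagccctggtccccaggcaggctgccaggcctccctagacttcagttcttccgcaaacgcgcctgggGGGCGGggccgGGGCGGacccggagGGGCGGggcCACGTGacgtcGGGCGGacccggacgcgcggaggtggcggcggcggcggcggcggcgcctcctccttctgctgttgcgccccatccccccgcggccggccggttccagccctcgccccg

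In Arl2bp and Rab5if a listed position was base 251 of the window, which is the annotated start itself, while a further listed start of Arl2bp lay upstream of the window, and in Arl5b it was base 293, inside the first transcribed bases. In Arl4a it was base 120, upstream of the start, and a further annotated promoter of Arl4a is not printed. The listed position of Arf4 lay 63 bp past its start, just beyond the end of the printed window. The row named Arl4d lay 7303 bp upstream of the gene, outside the sequence shown. The Arf5 window held no listed position at either age. It had 32 CpG dinucleotides in 300 bases, against the 35 of Arf4. This pair was picked for its similar CpG content, so the closeness is no result. The Arl2bp window held none of the motifs, with 26 CpG dinucleotides, and that of Arl4a was the richest shown, with 48.

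The letters searched were CCAAT for the CCAAT box, GGGCGG for the GC box, GCATGCGC for the core bound by NRF1, CCGGAAG for the ETS core, TGACGTCA for the full cyclic AMP response element (CRE), AAGATGG for the YY1 core, CACGTG for an E-box, TAACGG for the core bound by A-MYB, GTTGCNA for a site bound by RFX factors, TATAAA for the TATA box and ACTACAA for the core of THAP11 and ZNF143. Both strands were searched, and overlapping matches were counted separately. The table held 116 promoters for 90 of the 110 members, among 32851 promoters in all, and it had none for 20 members, including 6 listed ones. The GC box stood in 69.8% of the members' promoters against 35.7% of all promoters, and the CCAAT box in 44.0% against 37.4%. Among the 13 promoters of members listed at both ages, 10 held a GC box (76.9%) and 9 a CCAAT box (69.2%). In the 87 promoters of unlisted members the shares were 66.7% and 40.2%. Of the 81 unlisted members, 48 are on the minus strand, on whose starts the lists hold little. The contrast is therefore not one of promoters with and without ARID2. The CRE stood in 1.79% of all promoters and in 5 of the 116, those of Arl4d, Arl5b and Rab5a among them. The TATA box stood in 6.03% of the members' promoters against 13.6% of all. The remaining motifs were in 3.45% to 15.5% of the members' promoters, against 2.71% to 10.4% of all. These are matches of letters, and whether a factor binds them was not measured.

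At P28, 23 members were in the ARID2-enriched list, or 20.9% (14.4 to 29.4), against 16.8% of all protein-coding genes. At P28.5, 20 members were listed, or 18.2% (12.1 to 26.4), against 11.6%. At both ages 14 members were listed, or 12.7% (7.73 to 20.2), against 8.48%. A further 9 were listed at P28 alone, which is 8.18% (4.36 to 14.8) against 8.33%, and 6 at P28.5 alone, which is 5.45% (2.52 to 11.4) against 3.13%. Of the 9, 4 (3.64% of the members) had a row of their own name within 2000 bp of one of their starts, a count added after seeing the data. By that count 18 members (16.4%, 10.6 to 24.4) were listed at P28 and 19 (17.3%, 11.3 to 25.4) at P28.5. By a position of any name in that window 5 members (4.55%) were listed at P28 alone. The share of all genes was not computed by the own-name count, nor at P28 alone by a position of any name. The shares of all genes given here are by name. By name, the members' intervals at P28 and at P28 and P28.5 alone held the share of all genes, and the one for both ages held it too. The interval at P28.5 had its lower bound just above that share. Strand and CpG content were not matched in these counts. In all, 29 members were listed at one age or the other and 81 at neither. The P28 list is also the longer one, with 11553 rows against 8514, so a gene seen at P28 alone was not shown to lose ARID2.

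**Figure D1:**
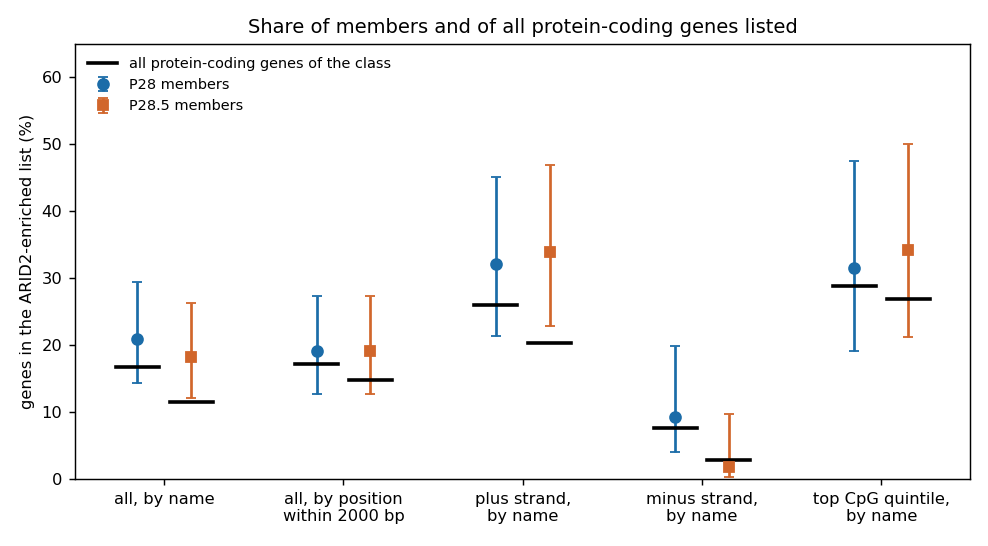
Share of genes in the ARID2-enriched list (%, y axis) at P28 (circles) and P28.5 (squares) for the members, with 95% Wilson intervals, and for all protein-coding genes of the same class (black lines). The classes, left to right, are all genes by name, all genes by a listed position within 2000 bp, each strand, and the top quintile of promoter CpG content. The members stood at 32.1% and 33.9% on the plus strand and at 9.26% and 1.85% on the minus strand.

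Most of the listed members were on the plus strand. Of the 56 members on the plus strand, 18 were listed at P28 (32.1%, 21.4 to 45.2, against 26.0% of all plus-strand genes). At P28.5 19 were listed (33.9%, 22.9 to 47.0, against 20.4%), and the interval lay above the share of all such genes. CpG content was not matched in this count, and the members were chosen with earlier results known. Nothing particular to the members follows from it. Of the 54 on the minus strand, 5 were listed at P28 (9.26%, 4.02 to 19.9, against 7.61%) and 1 at P28.5 (1.85%, 0.328 to 9.77, against 2.86%). All 14 members listed at both ages were on the plus strand. Over the whole P28 list, 4893 rows coincided with plus-strand 5′ ends, 1482 with minus-strand 3′ ends and 4 with minus-strand 5′ ends. At P28.5 these numbers were 4361, 122 and 4. The other rows of the 11553 at P28 and the 8514 at P28.5 fell on none of these ends and were not sorted further. As far as the rows matched an end, the lists therefore hold little on the starts of minus-strand genes. The absence of a minus-strand member such as Rab7, Rab11a or Arf1 says nothing about ARID2 at its promoter.

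Names can also be tied to distant positions, so the members were counted again by position. By this count 21 members had a listed position of any name no farther than 2000 bp from a start at P28 (19.1%, 12.8 to 27.4) against 17.3% of all genes, and 21 had one at P28.5 (19.1%, 12.8 to 27.4) against 14.8%. Members' own names stood on 46 rows and 32 distinct positions at P28, and on 28 rows and 24 positions at P28.5. Of these positions, 16 of 32 and 17 of 24 fell exactly on a 5′ end of the member, and 25 and 23 within 2000 bp of one. The 7 distant positions at P28 and the 1 at P28.5 are described with their genes below. The lists shared 17 positions, and 13 of the 14 members listed at both ages had the same set of positions at both.

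**Figure D2:**
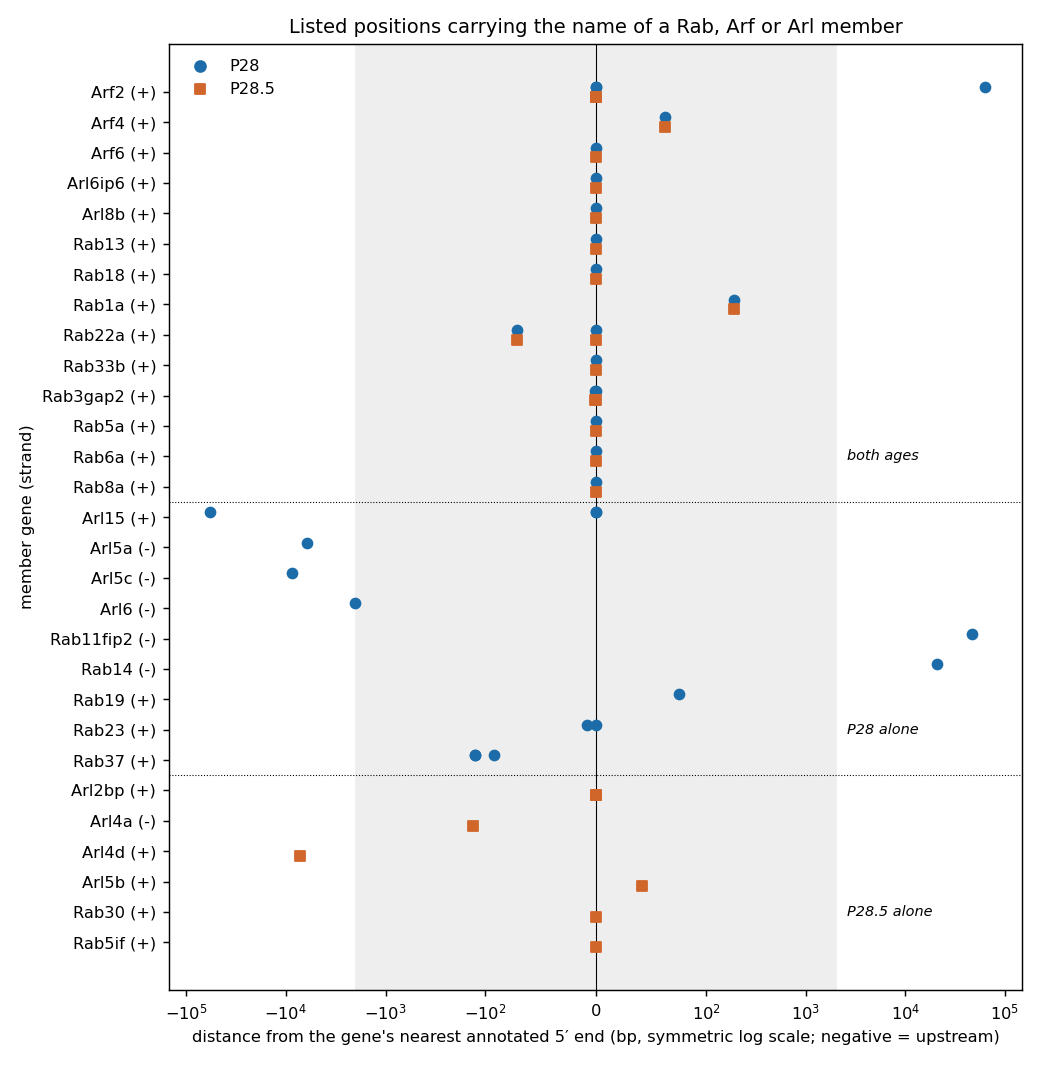
Listed positions that carry the name of a member, by distance in bp from the member's nearest annotated 5′ end (x axis, symmetric log scale, negative upstream), with 1 row per listed member and its strand in parentheses. Circles are P28 and squares P28.5, and the grey band spans 2000 bp on either side. Members listed at both ages sit within 190 bp of a 5′ end apart from the extra P28 position of Arf2 at 63609 bp, while the 5 minus-strand members listed at P28 alone lie from 2024 to 47187 bp away.

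Among the Arf GTPases, which recruit coats and lipid-modifying enzymes to membranes, 3 of 6 were listed, and all 3 at both ages. Of the 6, 4 are on the plus strand, and 8.48% of all protein-coding genes were listed at both ages. Arf2, of the class I Arfs that work at the Golgi, had 3 listed positions at P28, as many as Arl15 and Rab37, and 2 at P28.5. Its rows lay at 103966725 and 103966871 of chromosome 11 at both ages, each on an Arf2 5′ end. A further position at P28, 104030480, carried the name Arf2 but is the 5′ end of the noncoding RNA Gm35420, 63609 bp away. Arf4, of class II, was listed at 26638197 of chromosome 14 at both ages, and Arf6, which acts at the plasma membrane and in endosome recycling, at its 5′ end, 69372150 of chromosome 12. The unlisted ones were Arf1 and Arf3, on the minus strand, and Arf5, on the plus strand. The nearest listed position to an Arf5 start, named Snd1, was 56711 bp away at both ages. The promoter of Arf5 had a CpG ratio, the number of CpG observed over that expected from its C and G, of 0.800, against 0.902 for Arf4. The 6 genes for Arf GAPs and exchange factors in the set (Arfgap1 to Arfgap3 and Arfgef1 to Arfgef3) were listed at neither age, and 3 of them are on the plus strand.

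Sar1a and Sar1b, the GTPases that start the COPII coat for export from the ER, were not listed by name. At P28, however, 4 positions under the name 1700022H01Rik, a noncoding RNA gene read from the opposite strand, lay 1 to 30 bp from a Sar1a 5′ end, at 61680304, 61680320, 61680321 and 61680471 of chromosome 10. At P28.5 the nearest listed position to Sar1a was 15026 bp away. Sar1b had none nearer than 59333 bp at P28 and 143890 bp at P28.5.

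Rabs of the ER and Golgi were the Rab group with most listed members, 5 of 15 at each age, and 10 of the 15 are on the plus strand. The groups are small and differ in strand, and no difference between them was tested. Rab1a, which works in ER to Golgi transport, was listed at both ages at 20201602 of chromosome 11, 190 bp inside the gene. Rab6a, which directs retrograde Golgi traffic, was listed at both ages at its 5′ end, 100607586 of chromosome 7, on 2 rows. Rab33b, a Golgi Rab that also takes part in autophagy, had 51483966 of chromosome 3 at both ages. Rab18, which acts at the ER and lipid droplets, had its 5′ end at both ages. Rab19 was listed at P28 alone, at 39381428 of chromosome 6 and 75 bp from one of its 5′ ends. Its CpG ratio of 0.226 was the lowest of any listed member. That ratio was taken around its outermost 5′ end, 39380709, in a window that does not reach the listed position. Rab30, a Golgi Rab, was listed at P28.5 alone, at its 5′ end, 92741714 of chromosome 7. The nearest P28 position of any name lay 2265448 bp from Rab30. The members listed at neither age were Rab1b, Rab2a, Rab2b, Rab33a, Rab36, Rab39, Rab39b, Rab43 and Rab6b. Rab2b, on the minus strand, had at both ages a position named Tox4, 52279146 of chromosome 14, which is 244 bp from its 5′ end and is the start of Tox4 on the other strand.

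Of the Rabs of the early endosome and the recycling pathway, the P28 list had 4 of 16 and the P28.5 list 3. Of all genes 16.8% and 11.6% were listed, and 5 of these 16 Rabs are on the plus strand. Rab5a, which drives early endosome fusion, was listed at both ages at 53479234 of chromosome 17. Rab22a, which acts in endosomal recycling, had 2 positions at both ages, 173659845 of chromosome 2 on a 5′ end and 173659765, 71 bp upstream of another one. Rab13, known from transport to tight junctions, was listed at both ages at 90213715 of chromosome 3. Rab14, which links the trans-Golgi network to endosomes, was listed at P28 alone, but at 35180205 of chromosome 2, which is its own 3′ end and 20915 bp from its 5′ end. The unlisted members included Rab11a, Rab11b and Rab25, the Rabs of recycling endosomes, and Rab5b and Rab5c, all on the minus strand. Those unlisted on the plus strand were Rab35 and Rab4a, and on the minus strand also Rab17, Rab20, Rab21, Rab31 and Rab4b.

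None of the 10 Rabs of late endosomes, lysosomes and related organelles was listed at either age, beside 16.8% and 11.6% of all genes. They were Rab7, the main Rab of late endosomes, Rab7b, Rab9 and Rab9b, which act in return to the Golgi, and Rab12, Rab24, Rab29, Rab32, Rab38 and Rab42. Only 3 of the 10, Rab29, Rab38 and Rab7b, are on the plus strand, so the lists could say little about the others. The nearest listed positions to these 3 were 39198, 974093 and 131375 bp away at P28.

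Of the 13 Rabs of secretory vesicles and exocytosis, the P28 list had 2 and the P28.5 list 1, beside 16.8% and 11.6% of all genes. On the plus strand were 6 of the 13. Rab8a, which works in exocytosis and in building the cilium, was listed at both ages at its 5′ end, 72161200 of chromosome 8. Rab37, of secretory granules, was listed at P28 alone at 3 positions of chromosome 11, 115091204, 115091206 and 115091239, the nearest 92 bp upstream of a 5′ end. The 4 Rab3 genes of regulated secretion, Rab27a and Rab27b, Rab10, Rab15, Rab26, Rab44 and Rab8b were not listed. Of the 5 Rabs grouped as cilium and other, Rab23, a negative regulator of Hedgehog signalling, was listed at P28 alone, at 33719888 and 33719896 of chromosome 1, the second on its 5′ end. Rab28, Rab34, Rab40b and Rab40c were not.

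**Figure D3:**
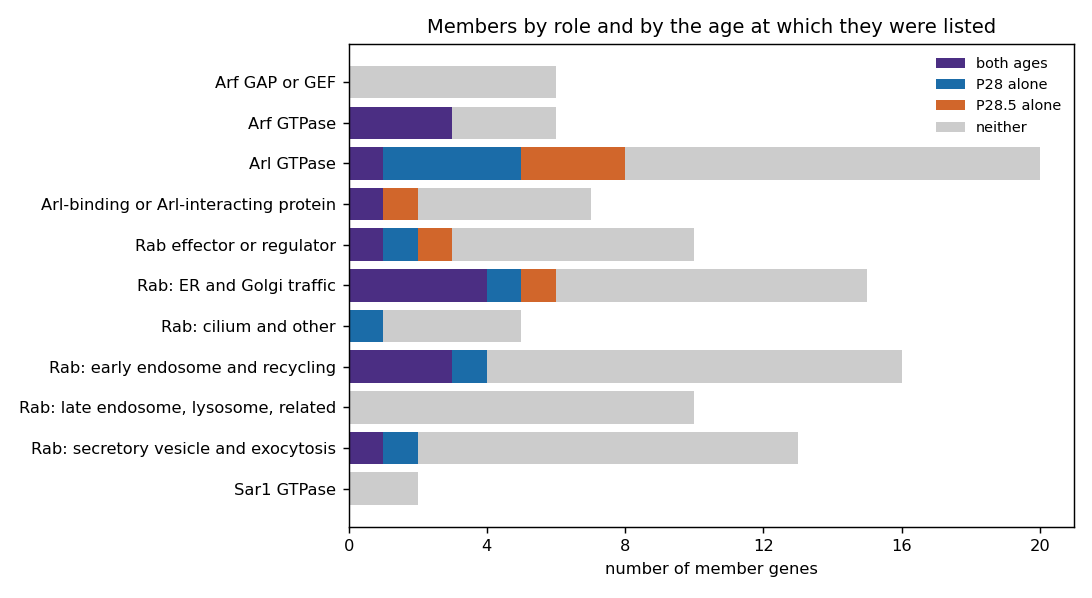
Number of members (x axis) in each role (y axis), split into those listed at both ages, at P28 alone, at P28.5 alone and at neither. The Arf GTPases, 4 of 6 on the plus strand, had 3 listed at both ages, and the 10 Rabs of late endosomes and lysosomes, 3 on the plus strand, had 0, beside 8.48% of all protein-coding genes.

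Of the 20 Arl GTPases, 5 had rows at P28 and 4 at P28.5, and 1, Arl8b, was in both lists. Of all genes 16.8% and 11.6% were listed at these ages, and 11 of the 20 Arls are on the plus strand. Arl8b, which moves lysosomes outward along microtubules, was listed at its 5′ end, 108783059 of chromosome 6. Arl15, which binds magnesium transporters, was listed at P28 alone on 5 rows. Its positions 113794508 and 113794509 of chromosome 13 were 5′ ends, and 113736220 lay 58286 bp upstream of them. The other Arls listed at P28 alone were on the minus strand, with rows away from their own starts. Arl5a was named at 52430999 of chromosome 2, the 3′ end of a Cacnb4 transcript 6125 bp away, and Arl5c at 98004925 of chromosome 11, the 3′ end of a Cacnb1 transcript 8640 bp away. Arl6, a Bardet-Biedl syndrome gene that recruits the BBSome to the cilium, was named at 59641433 of chromosome 16, the 3′ end of Epha6 and 2024 bp away. None of these 3 rows marks the promoter of the Arl gene it names.

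Arls listed at P28.5 alone were Arl4a, Arl4d and Arl5b. Arl4a and Arl4d, which bring Arf exchange factors to the plasma membrane, had rows that fell on none of their own annotated 5′ ends. That of Arl4a, 40038118 of chromosome 12 on 3 rows, lay 131 bp upstream and within the noncoding RNA gene Arl4aos, which is read from the other strand. That of Arl4d, 101658238 of chromosome 11, was the 5′ end of the small nuclear RNA gene Rnu2-10, 7303 bp upstream of Arl4d. Arl5b, a GTPase of the trans-Golgi network, was listed at 15055362 of chromosome 2, 42 bp past its start, and the nearest P28 position was 981140 bp from it. All 3 members of the Arl5 trio were thus named, Arl5a and Arl5c at P28 alone and Arl5b at P28.5 alone, but only the row of Arl5b lay near the start of its gene. The 12 Arls listed at neither age were Arl1, Arl10, Arl11, Arl13a, Arl13b, Arl14, Arl16, Arl2, Arl3, Arl4c, Arl8a and Arl9. Arl16, on the minus strand, had at both ages 2 positions named Hgs, 120467635 and 120467640 of chromosome 11, 35 and 40 bp from its 5′ end. Hgs, which sorts ubiquitinated cargo on endosomes, is read from the other strand there.

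Among the partners and regulators, Rab3gap2 was listed at both ages, at 185204168 of chromosome 1 on a 5′ end and at 185204087, 1 bp from another one. Its product is the noncatalytic subunit of a complex that is a GAP for Rab3 and an exchange factor for Rab18. Rab3gap1, the catalytic subunit, is on the plus strand as well and was not listed, with the nearest position 94591 bp away at both ages. Arl6ip6 was listed at both ages at its 5′ end, 53192084 of chromosome 2. Arl2bp, an effector of Arl2, was listed at P28.5 alone at 2 of its 5′ ends, 94666600 and 94667091 of chromosome 8. Rab5if was listed at P28.5 alone at its 5′ end, 156863122 of chromosome 2, under its older name 1110008F13Rik. Rab11fip2, an effector of Rab11, was named at P28 alone at 59895544 of chromosome 19, 47187 bp inside the gene from its 5′ end. The other Rab effectors or regulators listed at neither age were Rab11fip1, Rab11fip3, Rab11fip4, Rab11fip5, Rab3il1 and Rab3ip, and the other Arl partners were Arl14ep, Arl14epl, Arl6ip1, Arl6ip4 and Arl6ip5. The 5 members on the X chromosome, Arl13a, Rab33a, Rab39b, Rab9 and Rab9b, were not listed at either age, like nearly all genes of that chromosome. Of 963 protein-coding X-linked genes, the P28 list had 0 (0%) and the P28.5 list 2 (0.208%). The 0 of 5 has a Wilson upper bound of 43.4%, or a limit of 60.0% by the rule of 3 counts, and is close to the share of all X-linked genes.

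The set was also sorted into 29 groups of close relatives or subunits of 1 complex. In 16 groups no member was listed, in 12 some were, and in 1, Arl5a to Arl5c, all were. In 5 of the 12 mixed groups the listed members were on the plus strand and the others on the minus strand. These were Rab1a against Rab1b, Rab5a against Rab5b and Rab5c, Rab22a against Rab31, Rab8a and Rab13 against Rab8b and Rab10, and Arf2 against Arf1 and Arf3. Rab11fip2 was on the minus strand like the unlisted Rab11fip1 and Rab11fip5, and so was Arl4a like the unlisted Arl4c. Pairs that shared the plus strand and still differed were Arf4 and Arf5, Rab6a and Rab6b, Rab33b and Rab33a, Arl8b and Arl8a, and Rab3gap2 and Rab3gap1. In 4 of these 5 pairs the listed gene had the higher CpG ratio, at 0.902 against 0.800 for Arf4, 1.049 against 0.681 for Rab6a, 0.831 against 0.772 for Rab33b and 0.739 against 0.701 for Rab3gap2. In the other pair the unlisted gene was higher, at 0.963 for Arl8a against 0.857 for Arl8b. Rab33a is on the X chromosome, of which the lists held almost no genes, so its pair says little about CpG content.

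The members' promoters were richer in CpG than those of most genes. The CpG ratio was taken within 500 bp on either side of a gene's outermost 5′ end, which need not be the start that was listed. It had a median of 0.738 over the members and 0.516 over all protein-coding genes. Of the members, 38 (34.5%) were in the top quintile of all genes, at or above 0.792. Members listed at both ages had a median of 0.854 (range 0.622 to 1.05) and 9 of 14 in the top quintile. Those listed at P28.5 alone had a median of 0.867 (0.564 to 0.987) and those at P28 alone 0.765 (0.226 to 1.01). The unlisted ones had 0.694 (0.101 to 1.01), with 22 of 81 in the top quintile. The ranges overlapped. All 14 members listed at both ages are on the plus strand. Of the 81 unlisted ones, 48 are on the minus strand, on whose starts the lists hold little. These medians therefore do not contrast promoters with and without ARID2. Among genes of the top quintile, 12 of the 38 members were listed at P28 (31.6%, 19.1 to 47.5, against 28.8% of all such genes) and 13 at P28.5 (34.2%, 21.2 to 50.1, against 27.0%), and both intervals held the share of all such genes.

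**Figure D4:**
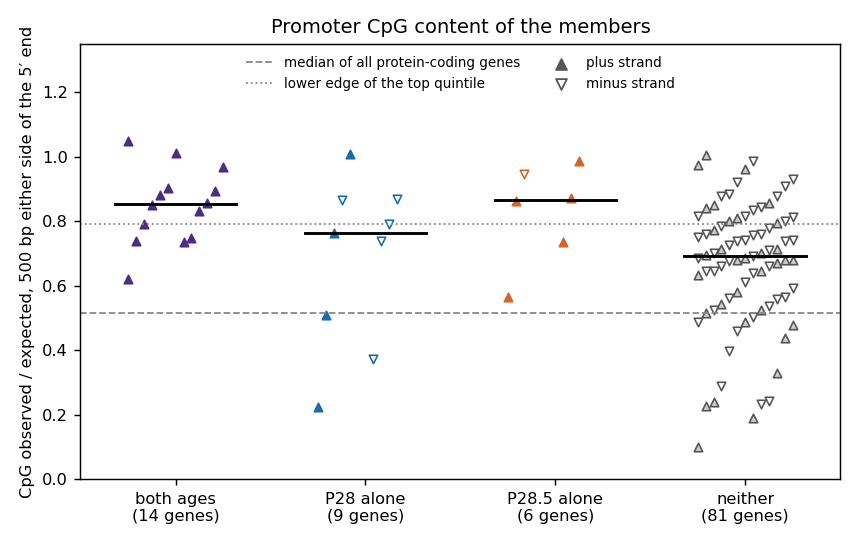
Observed over expected CpG in the 500 bp on either side of the outermost 5′ end (y axis) for each member, by the age at which it was listed. All 14 members listed at both ages are on the plus strand, against 33 of the 81 unlisted ones. Filled upward triangles are plus-strand and open downward triangles minus-strand genes, short black lines are medians (0.854, 0.765, 0.867 and 0.694 from left to right), the dashed line is the median of all protein-coding genes (0.516) and the dotted line the lower edge of the top quintile (0.792).

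A start of a protein-coding gene on the other strand lay within 1000 bp of the 5′ end in 12 members (10.9%, against 12.2% of all protein-coding genes). Of these 12, the listed ones were Arl6ip6, Rab13 and Rab6a at both ages and Arl5b at P28.5 alone. At such a start a listed position cannot be assigned to one gene of the pair.

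The proteins that load, switch off and read these GTPases were looked up the same way, as 151 genes in 7 lists written from gene function. At P28, 36 of them were listed (23.8%, 17.7 to 31.2), against the 16.8% of all genes given above, and at P28.5 27 (17.9%, 12.6 to 24.8), against 11.6%. At both ages 19 were listed (12.6%, 8.21 to 18.8). The intervals at P28 and P28.5 lay above the share of all genes and that at both ages held it. Strand and CpG content were not matched in this count, so nothing particular to the pathway follows from it.

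Among the 8 genes for prenylation, escort and recycling, Gdi2, which takes Rabs off membranes, and Rabif, a Rab-binding factor, were listed at both ages. Of 31 Rab exchange factors, 8 had rows at P28 and 7 at P28.5. Those at both ages included Mon1b, of the complex that loads Rab7, Trappc1, a subunit of the TRAPP complexes that load Rab1, Dennd4c and Dennd6a. Ankrd27, Dennd4a and Trappc10 were listed at P28 alone, and Dennd2c and Ric1 at P28.5 alone. Of 34 Rab GAPs, 7 and 5 were listed, with Evi5l, Tbc1d10a and Tbc1d17 at both ages, Sgsm3, Tbc1d1, Tbc1d4 and Tbc1d7 at P28 alone and Rabgap1 and Tbc1d13 at P28.5 alone. Of 20 Rab effectors, 6 and 5 were listed. They were Bicd2, which joins Rab6 vesicles to dynein, the golgins Golga2 and Golga5 and the Rab5 effector Rabep1 at both ages, Rilp and Rilpl2 at P28 alone, and Eea1, the Rab5 tether of early endosomes, at P28.5 alone.

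On the Arf side, 5 of 14 exchange factors had rows at P28 and 2 at P28.5. Gbf1, which loads Arf1 at the Golgi, and Fbxo8 were listed at both ages, and Cyth3, Psd2 and Psd4 at P28 alone. Of 26 Arf GAPs, 4 were listed at each age. Elmod2, a GAP for Arl2, and Sec23b, the GAP for Sar1 within the COPII coat, were listed at both, Agfg1 and Asap2 at P28 alone, and Acap3 and Git2 at P28.5 alone. Of the 18 effectors and related genes, 4 had rows at P28 and 2 at P28.5, with Trim23 at both ages, Rabl3, Rabl6 and Unc119 at P28 alone and Gga1, an Arf-dependent cargo adaptor, at P28.5 alone. The Arf exchange factors had the highest share of the 7 lists at P28, 35.7% (16.3 to 61.2), beside 16.8% of all genes. At P28.5 they stood at 14.3% (4.01 to 39.9), beside 11.6%. The intervals of all 7 lists overlapped, and each held the share of all genes at both ages.

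**Figure D5:**
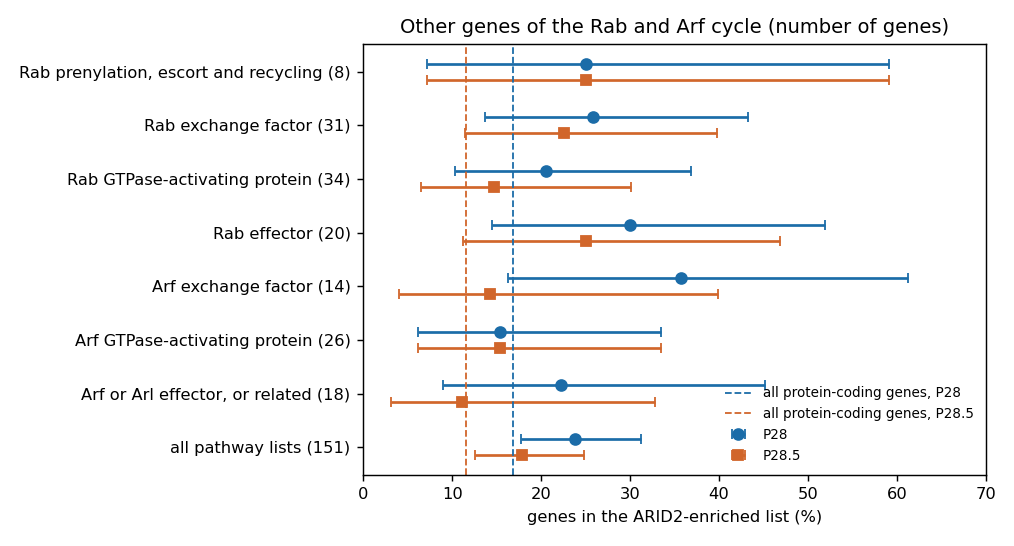
Share of genes in the ARID2-enriched list (%, x axis) for the 7 lists of other Rab and Arf cycle genes and for all 151 of them, at P28 (circles) and P28.5 (squares), with 95% Wilson intervals. Dashed lines mark all protein-coding genes, 16.8% at P28 and 11.6% at P28.5, and the intervals of the single lists overlap.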

How the data were processed

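CUT&RUN had been run by the authors on spermatogenic cells at P28 and P28.5. Per the paper's methods they trimmed the reads, aligned them to mm10 with Bowtie2, made coverage tracks without blocklisted regions and duplicates with deepTools, expressed ARID2 signal as a log2 ratio over the control, averaged it over replicates and grouped RefSeq TSSs by k-means. The deposited lists hold positions of TSSs of Cl-1 and gene symbols, with no counts, signal or strand. The depth could not be read from them. They were compared with RefSeq gene models on GRCm38.p6 (mm10) with pysam 0.24.0, numpy 2.4.6, scipy 1.17.1 and matplotlib 3.10.9 in Python 3.11.15. Rows were assigned to genes by current symbol, or by an older name where only 1 gene had it, and distances were taken to the nearest of the gene's annotated 5′ ends. CpG content was taken within 500 bp on either side of the 5′ end and ranked in 5 quintiles over all protein-coding genes.

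The members and all gene lists were chosen with earlier results of these data known. Every listed member is named, with positions in full for members listed at P28.5 alone, for the 10 with most positions and for relatives that differed in listing, and other positions were added after their values were seen. Genes outside the set appear as neighbours or as members of the 7 pathway lists. Not every listed gene of these lists is reported by name here. The matching was run on simulated lists with current symbols placed at annotated 5′ ends, so their recovery was fixed in advance. Older names and distant rows were not covered by it. A comparison of the protein sequences, planned beforehand, was not computed.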

Additional observations from a re-analysis of the deposited data

How the results depend on the processing

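Of 40 alternatives to the 5 shares of listed members, 32 moved a share by less than its 95% Wilson interval and 8 moved it by more. With plus-strand members alone the share was 32.1% at P28, 33.9% at P28.5 and 25.0% at both ages, and with minus-strand members alone 9.26%, 1.85% and 0%, and 1.85% at P28.5 alone. The lists hold few minus-strand starts. Counting a member as listed only where a row of its own name lay within 2000 bp of one of its 5′ ends, an alternative chosen after seeing the data, left 3.64% (4 members) at P28 alone. It gave 16.4% (18 members) at P28 and 17.3% (19 members) at P28.5. The share of all genes was not computed by that rule. The windows of 500 bp and 2000 bp gave the same shares. No paired analysis was possible because the lists came from averaged replicates and no result came from a test. Leaving out a replicate was not possible for the same reason. The lists give no depth.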

Other observations

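Antisense RNA genes that bear the name of a member were listed without the member itself. Rab10os was listed at both ages at 3235791 of chromosome 12, 74178 bp from the 5′ end of Rab10, and Rab26os at both ages at 24528251 of chromosome 17, 5496 bp from the 5′ end of Rab26. Rab11fip4os2 was named at P28.5 alone at 79660522 of chromosome 11, 6979 bp from a 5′ end of Rab11fip4. The first 2 are on the plus strand, opposite Rab10 and Rab26, and their positions are annotated RNA starts. These genes were looked up after their values were seen.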
